A study of Mus musculus with 6 samples.

Results

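The 8 genes described here encode the chains of the mouse receptors for the constant (Fc) parts of IgE and IgG. They were taken by symbol from a list (Fcer1a, Ms4a2, Fcer1g, Fcgr1, Fcgr2b, Fcgr3, Fcgr4 and Fcgrt), and all 8 were found among the 47643 genes of the count table. RNA of skin mast cells was measured in 6 libraries. The 3 embryonic libraries (PRIM) came from embryos at E16.5 and were gated CD45+ F4/80- CD64- ckit+ with ST2+, the IL-33 receptor. The submitters describe these cells as derived from YS HE, read here as yolk sac hemogenic endothelium. The 3 adult libraries (DEF) came from adult skin and shared the gate up to ckit+, with the IgE receptor (Fcer1+ in the labels) in place of ST2, and the submitters call them definitive. Mice of both groups carried Cdh5CreERT2, a tamoxifen-inducible Cre recombinase under an endothelial promoter, and were pulsed with 4OHT at E7.5. The labels do not say that the sort used a lineage reporter, so the origin of the cells rests on the submitters' description. Age, described origin, gate and an additional Dispase step for adult skin changed together and cannot be told apart. Whether the libraries of a group came from separate animals is not stated, so the p-values reflect variation among these libraries alone, and some of it may be technical.

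The high-affinity IgE receptor is built from an alpha chain that binds IgE (Fcer1a), a membrane-spanning beta chain that amplifies the signal (Ms4a2) and a pair of gamma chains (Fcer1g) that carry the signalling motif called ITAM. The same gamma chain is needed by the activating IgG receptors encoded by Fcgr1, Fcgr3 and Fcgr4, whereas Fcgr2b encodes the inhibitory IgG receptor, which recruits the lipid phosphatase SHIP-1 and dampens activation by IgE. Fcgrt encodes the heavy chain of the neonatal Fc receptor, which pairs with beta-2-microglobulin and protects IgG from breakdown inside cells. Mature mast cells release histamine when antigen crosslinks IgE on this receptor, and mouse mast cells are known to carry both the inhibitory receptor and the Fcgr3 product.

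In brief, mRNAs of the IgE-binding alpha chain, of the beta chain and of the inhibitory IgG receptor were higher in adult cells, by 130-fold, 7.46-fold and 12.8-fold. The mRNA of the shared gamma chain did not pass the test, and that of the activating IgG receptor Fcgr3 was 1.82-fold higher in embryonic cells. Fcgrt was 6.56-fold higher in adult cells at a low level, and Fcgr1 and Fcgr4 were near the counting floor in both groups. Of the 8 members 6 were tested, and 5 passed, 4 of them higher in adult and 1 in embryonic cells. Over all genes 63.0% of the 15111 tested genes passed, 31.7% being higher in adult and 31.2% in embryonic cells, so passing by itself is the usual outcome in this comparison. The sizes are less usual: 5.71% of tested genes passed with at least 10-fold higher values in adult cells, and Fcer1a and Fcgr2b are among them. The tested members had at least 43 counts in each embryonic library, so none was tested only through its adult values. Values are CPM, counts scaled to the TMM-adjusted size of each library, errors are SD over the 3 libraries of a group, folds come from edgeR's quasi-likelihood fit, and its p-values are Benjamini-Hochberg adjusted over all tested genes.

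The libraries held 34122162 to 49813523 counts in genes, and 3 counts in a library correspond to 0.0602 to 0.0879 CPM. Counting intervals and this floor cover counting error only, since the reads carry no molecular identifiers. The defining mast cell markers were present throughout: Kit was at 4682 to 5323 CPM in the embryonic and 4830 to 5696 CPM in the adult libraries, and 10 mast cell markers summed to 126900 to 138800 and 62660 to 66620 CPM. Il1rl1, the gene of ST2, was 1.72-fold higher in embryonic cells (1521 ± 83.1 and 887 ± 43.4 CPM), and Adgre1, the gene of F4/80, averaged 0.457 and 2.98 CPM. Marker lists of other skin cells differed between the groups. The 13 macrophage and monocyte markers, led by Lyz2 and Cd68, summed to 19.1 to 49.8 CPM in the embryonic and 213 to 301 CPM in the adult libraries, with none at 0 throughout. The 8 Langerhans and dendritic cell markers, led by Cd74 and H2-Ab1, summed to 42.9 to 63.1 CPM and 1004 to 2983 CPM, also with none at 0 throughout. Macrophages, dendritic cells and B cells are known to express IgG Fc receptors, so these sums are given again beside the genes they move with. The 5 basophil markers, led by Cd200r3 and Prss34, summed to 805 to 953 CPM in the embryonic and 617 to 710 CPM in the adult libraries, and mast cells themselves express several of them. Within that list Prss34 was 351-fold and Mcpt8 3.70-fold higher in embryonic cells, and Itga2 2.71-fold higher in adult cells. Neutrophil markers, with Mmp8 and S100a9 highest, summed to at most 0.312 CPM in the embryonic and 2.49 CPM in the adult libraries. B and NK cell markers, with Cd79a and Gzma highest, summed to at most 0.658 CPM in any library, and 4 of the 7 (Ms4a1, Pax5, Ncr1 and Klrb1c) had 0 counts in every library. Fibroblast, keratinocyte and endothelial markers, led by Col3a1 and Col1a2, summed to 557 to 694 CPM in the embryonic and 73.9 to 379 CPM in the adult libraries.

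The promoters of the 3 IgE receptor chains are shown because 2 of these genes, Fcer1a and Ms4a2, were higher in adult cells and the third, Fcer1g, did not pass the test. Each sequence is the 250 bases before the RefSeq start in GRCm38.p6, on the minus strand and read 5′ to 3′: chr1:173227230-173227479 for Fcer1a, chr19:11623720-11623969 for Ms4a2 and chr1:171234350-171234599 for Fcer1g. Capitals mark matches, on either strand, to the GATA factor motif (AGATAA, its variant AGATAG, and the same with a leading T, TGATAA with its variant TGATAG), a PU.1-type motif (GAGGAA) or an E-box of the type bound by MITF (CACGTG, with CATGTG as the variant).
Fcer1a: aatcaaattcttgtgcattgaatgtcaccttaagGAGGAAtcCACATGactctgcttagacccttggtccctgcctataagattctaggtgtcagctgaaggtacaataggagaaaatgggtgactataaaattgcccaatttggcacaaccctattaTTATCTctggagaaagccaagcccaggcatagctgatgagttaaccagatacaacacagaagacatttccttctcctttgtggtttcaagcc
Ms4a2: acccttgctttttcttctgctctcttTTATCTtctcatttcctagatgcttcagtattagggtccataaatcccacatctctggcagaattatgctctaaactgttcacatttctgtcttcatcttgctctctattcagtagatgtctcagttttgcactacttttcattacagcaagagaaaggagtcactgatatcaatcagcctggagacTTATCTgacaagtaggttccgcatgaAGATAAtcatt
Fcer1g: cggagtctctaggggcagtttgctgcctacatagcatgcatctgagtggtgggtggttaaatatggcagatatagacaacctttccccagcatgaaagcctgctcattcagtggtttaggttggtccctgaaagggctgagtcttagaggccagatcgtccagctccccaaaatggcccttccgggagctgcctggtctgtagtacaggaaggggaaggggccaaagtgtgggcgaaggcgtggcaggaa
The Fcer1a window held 1 GATA motif, 87 to 92 bases before the start, with 1 PU.1-type motif and 1 E-box farther upstream, and no 2 marked matches overlapped. The Ms4a2 window held 3 GATA motifs, all AGATAA or its complement, of which 2 lay within 37 bases of the start. No marked motif was found in the Fcer1g window. Windows of the other members, not shown, were scanned in the same way. Those of Fcgr2b and Fcgrt, also higher in adult cells, held no marked motif. The Fcgr4 window held 1 GATA and 1 PU.1-type motif although Fcgr4 was near the counting floor, and those of Fcgr1 and Fcgr3 held 1 PU.1-type motif each. Among the tested members a GATA motif was thus found in Fcer1a and Ms4a2 only, both higher in adult cells. Whether motifs go with direction was not tested. Of 32851 RefSeq promoters of the same length 26.5% held at least 1 GATA motif and 6.40% at least 2, 23.3% held the PU.1-type motif and 17.6% the E-box. A match describes these letters only and is not evidence of binding.

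Fcer1a (ENSMUSG00000005339.10, chr1:173221284-173227214, minus strand), the IgE-binding chain, read 5.82, 4.39 and 7.32 CPM in embryonic replicates 1 to 3 and 826, 552 and 907 CPM in adult replicates 1 to 3. Every adult library was far above every embryonic one, and adult replicate 2 was the lowest of its group. The fitted log2 fold change (embryonic minus adult, here and below) was -7.02 ± 0.28 SE (edgeR adjusted p = 2.2e-07). Among tested genes that were higher in adult cells its fold ranked 136. The adult gate selected on the receptor that contains this chain while the embryonic gate did not, so the gate and the group cannot be told apart for this gene. The embryonic libraries nevertheless held 155 to 351 Fcer1a counts each, well above the counting floor.

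Ms4a2 (ENSMUSG00000024680.12, chr19:11615523-11623719, minus strand), the beta chain, read 219, 198 and 205 CPM in the embryonic and 1423, 1663 and 1550 CPM in the adult libraries. The groups did not overlap, and libraries within a group differed by less than 1.2-fold. The log2 fold change was -2.90 ± 0.11 SE (edgeR adjusted p = 3.2e-08). Its product is part of the receptor the adult gate selected on, so the limit given for Fcer1a applies here too.

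Fcer1g (ENSMUSG00000058715.11, chr1:171229572-171234365, minus strand), the gamma chain, read 644, 539 and 613 CPM in the embryonic and 522, 510 and 549 CPM in the adult libraries. The ranges overlapped, because embryonic replicate 2 lay below adult replicate 3. The log2 fold change was 0.18 ± 0.10 SE and did not pass (edgeR adjusted p = 0.14). Without embryonic replicate 2 it was 0.31 and passed (edgeR adjusted p = 0.044), and with that call 2 members were higher in embryonic cells. The fold lay between 1.11 and 1.24 over all alternatives, always toward embryonic cells. In simulated data the test recovered 6% of 1.5-fold changes, but every simulated gene had the same spread and few genes changed. That share does not carry over to Fcer1g, whose SE was 0.10. In the real data B2m passed at 1.49-fold. The range of 1.11 to 1.24 given above comes from the alternatives and is not a confidence interval. Given the SE of 0.10, neither no difference nor one somewhat above 1.24-fold is excluded.

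Levels of different genes can be compared only per length, so CPM was divided by kilobases of exon. On this scale the embryonic order was Fcer1g (685 ± 62.2), Fcgr3 (405 ± 44.6), Ms4a2 (73.7 ± 3.96), Fcer1a (5.86 ± 1.47), Fcgr2b (3.80 ± 0.576) and Fcgrt (0.862 ± 0.377 CPM per kilobase). The ranges of neighbours in that order did not overlap, except those of Fcer1a (4.40 to 7.34) and Fcgr2b (3.40 to 4.46), although Fcer1a was above Fcgr2b within each embryonic library. In adult libraries the 3 IgE receptor chains were closer together, with Fcer1a at 763 ± 186, Fcer1g at 603 ± 22.5 and Ms4a2 at 549 ± 42.7 CPM per kilobase, and each overlapped its neighbour. Below them, without overlap, came Fcgr3 (223 ± 24.2), Fcgr2b (48.6 ± 6.19) and Fcgrt (5.67 ± 2.65 CPM per kilobase). Fcgr4 and Fcgr1 were last in both groups, at means of at most 0.0508 CPM per kilobase, and were not separated from each other. Among all tested genes, the level per kilobase of Fcer1g stood at percentile 99.8 in embryonic and 99.7 in adult cells, that of Fcer1a at 60.5 and 99.8, that of Ms4a2 at 96.0 and 99.6, and that of Fcgr2b at 52.6 and 93.4.

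**Figure D1:**
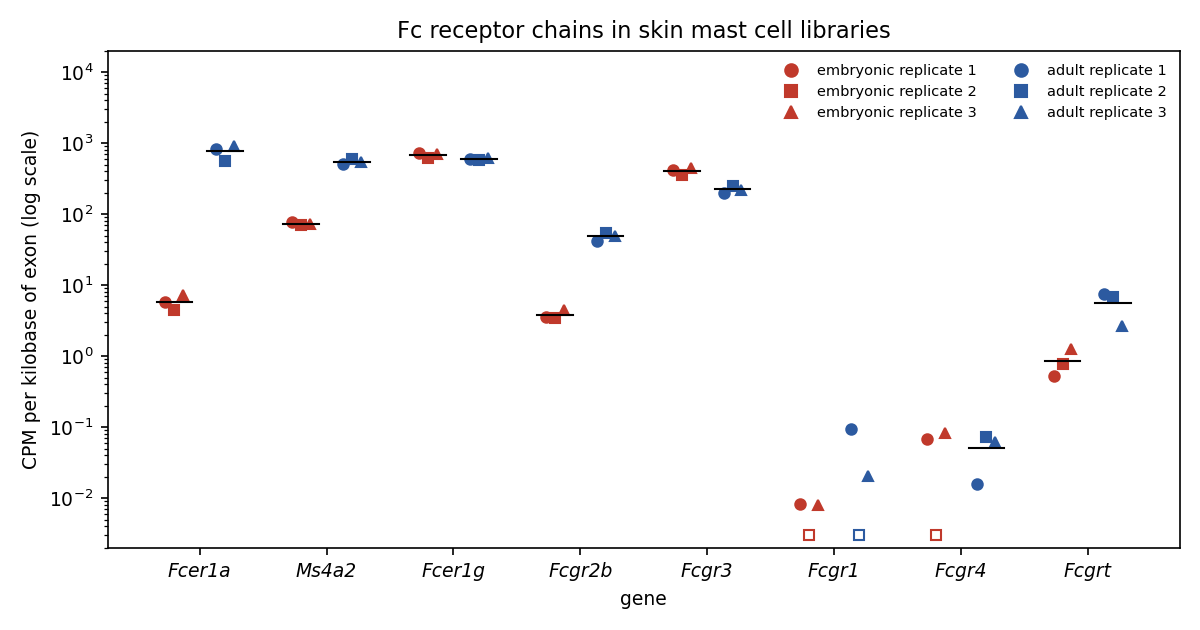
CPM per kilobase of exon (log scale) of the 8 Fc receptor genes in each embryonic (red) and adult (blue) library, with lines at group means where all 3 libraries are above 0; open symbols at the bottom mark libraries with 0 counts. Fcer1a lies at 4.40 to 7.34 in embryonic and 553 to 909 in adult libraries, while Fcer1g lies at 616 to 737 and 584 to 628.

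The balance between the chains of the IgE receptor was read within each library, where library scaling has no part. The per-length ratio of Fcer1a to Fcer1g was 0.00791, 0.00714 and 0.0105 in embryonic and 1.39, 0.947 and 1.45 in adult libraries. It was thus at or below 0.0105 in each embryonic library and near or above 1 in each adult library, a 148-fold difference of geometric means. The ratio of Ms4a2 to Fcer1g was 0.106, 0.114 and 0.104 in embryonic and 0.848, 1.01 and 0.878 in adult libraries, 8.45-fold apart. The ratio of Fcer1a to Ms4a2 was 0.0748, 0.0626 and 0.101 against 1.64, 0.936 and 1.65, 17.5-fold apart, and adult replicate 2 was the lowest of its group here as for Fcer1a alone. Put as shares of the 3 chains per kilobase, Fcer1a made up 0.637% to 0.939% in embryonic and 32.0% to 43.5% in adult libraries. For Fcer1g the shares were 89.2% to 89.8% and 30.1% to 33.8%. None of these 3 ratios can be told apart from the adult gate, since each includes the alpha or the beta chain of the gated receptor.

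Of the IgG receptors, the inhibitory and the main activating one went in opposite directions. Fcgr2b (ENSMUSG00000026656.15, chr1:170958617-170976547, minus strand), the inhibitory receptor, read 20.5, 19.7 and 25.8 CPM in the embryonic and 244, 315 and 286 CPM in the adult libraries. The lowest adult library was far above the highest embryonic one, and the log2 fold change was -3.68 ± 0.15 SE (edgeR adjusted p = 4.7e-08). Fcgr3 (ENSMUSG00000059498.13, chr1:171051174-171064935, minus strand), which encodes the activating receptor CD16, read 716, 619 and 772 CPM in the embryonic and 349, 432 and 378 CPM in the adult libraries. Here the embryonic libraries were all higher, with a log2 fold change of 0.86 ± 0.12 SE (edgeR adjusted p = 0.00016). Groups of libraries that do not overlap are common in this comparison, at 70.0% of tested genes, and 5 of the 6 tested members were of that kind.

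The per-length ratio of Fcgr2b to Fcgr3 was 0.00859, 0.00954 and 0.0100 in embryonic and 0.209, 0.218 and 0.227 in adult libraries. The spread within a group was small beside the 23.3-fold difference. Fcgr2b accounted for 0.851% to 0.993% of the summed per-kilobase level of the 2 genes in embryonic and 17.3% to 18.5% in adult libraries, so the activating receptor's mRNA was the more abundant one in both groups. In each of the 4 chain ratios described, all 3 adult libraries were above all 3 embryonic ones, and the exact two-sided permutation test gave p = 0.10 (0.10 after adjustment over the 4 ratios), the smallest value that 3 libraries against 3 can give. The exons counted for Fcgr2b span 5790 bases over all its transcripts, against 1736 for Fcgr3, and transcripts that use only part of them would make its per-length level an underestimate. The group difference in the ratio does not depend on these lengths.

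**Figure D2:**
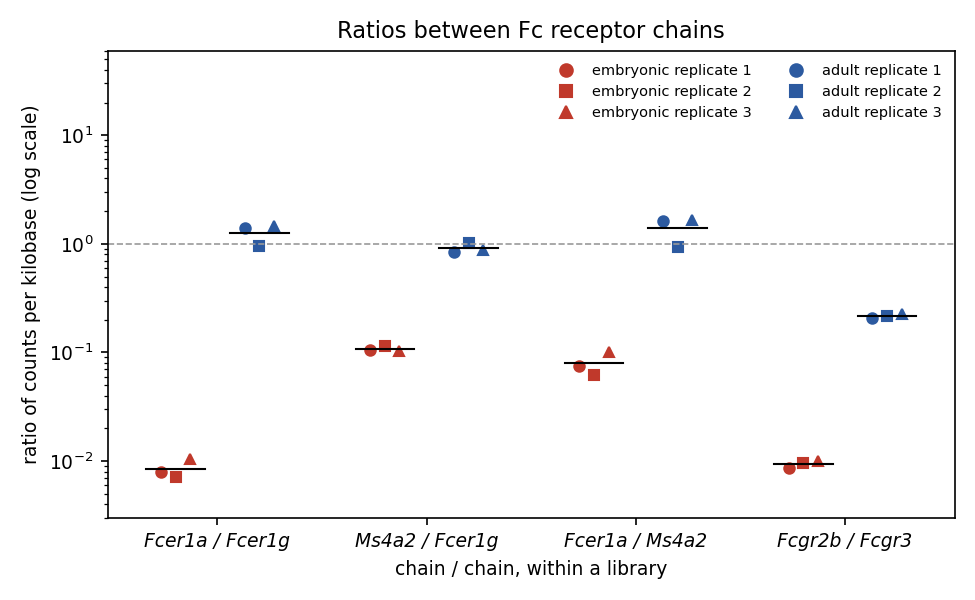
Per-length ratios of pairs of Fc receptor chains within each embryonic (red) and adult (blue) library (log scale), with lines at group means and a dashed line at equal levels. The ratio of Fcgr2b to Fcgr3 lies at 0.00859 to 0.0100 in embryonic and 0.209 to 0.227 in adult libraries, and that of Fcer1a to Fcer1g reaches 0.947 to 1.45 in adult libraries.

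Fcgr2b, Fcgr4, Fcgr3 and Fcer1g lie within 276 kilobases of chromosome 1, and Fcer1a lies a further 1987 kilobases away. The directions along this stretch were mixed, with Fcgr2b higher in adult cells, Fcgr4 at the floor, Fcgr3 higher in embryonic cells and Fcer1g not passing. Fcgr2b and Fcgr3 are related in sequence, which matters because reads that align to several places were not counted. Of the distinct windows of 50 bases in their GENCODE M21 transcripts, 6.95% of those of Fcgr2b and 9.58% of those of Fcgr3 also occurred in transcripts of another gene. Those of Fcgr3 were shared with Fcgr2b, and those of Fcgr2b with Fcgr3 and other genes. With windows of 100 bases the shares were 4.30% and 2.54%, and for Fcgr2b the genes sharing most were then Cplx2 and Gm47409. For Ms4a2 the share was 2.10% with windows of 50 bases and 0.406% with windows of 100, all of it with the family member Ms4a4b. For the other 5 members it was 0 at both sizes. In the counted annotation 2.68% of the exon bases of Fcgr2b also belonged to Gm38204 on the other strand, and no other member shared exon bases.

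Fcgr1 (ENSMUSG00000015947.10, chr3:96282909-96293969, minus strand), which encodes CD64, the high-affinity IgG receptor gated against in both groups, had 1, 0 and 1 counts in embryonic and 12, 0 and 2 counts in adult libraries. Most libraries were at or under the floor, and adult replicate 1 held nearly all the signal. The adult to embryonic ratio of summed counts was 6.93 (95% exact binomial counting interval 1.59 to 62.8), and without adult replicate 1 it was 1.60 on 2 counts a group. Fcgr4 (ENSMUSG00000059089.4, chr1:171018920-171029761, plus strand), an activating IgG receptor of myeloid cells, had 4, 0 and 5 counts in embryonic and 1, 4 and 3 counts in adult libraries. Its ratio was 0.880 (95% exact binomial counting interval 0.296 to 2.57), so a difference was not detectable at this depth. Neither gene passed the filter on low counts, so neither was tested. With every gene of at least 1 count kept, edgeR gave adjusted p values of 0.21 for Fcgr1 and 0.97 for Fcgr4.

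Fcgrt (ENSMUSG00000003420.7, chr7:45092993-45103822, minus strand), the neonatal Fc receptor chain, read 0.924, 1.36 and 2.21 CPM in the embryonic and 13.2, 11.7 and 4.61 CPM in the adult libraries. Adult replicate 3 was well below the other adult libraries and embryonic replicate 3 was the highest of its group, but the groups did not overlap. The log2 fold change was -2.71 ± 0.46 SE (edgeR adjusted p = 0.00089). Its partner B2m, which encodes beta-2-microglobulin of both the neonatal Fc receptor and MHC class I, read 354, 308 and 399 CPM in the embryonic and 511, 512 and 557 CPM in the adult libraries. B2m was thus 1.49-fold higher in adult cells without overlap (edgeR adjusted p = 0.0015).

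Within the groups Fcgrt varied among libraries along with some marker sums of other cells. The Langerhans and dendritic cell markers summed to 2983, 2636 and 1004 CPM in adult replicates 1 to 3, and the macrophage and monocyte markers to 296, 301 and 213 CPM, so adult replicate 3 was lowest in all 3 measures. In embryonic replicates 1 to 3 the macrophage and monocyte markers summed to 19.1, 28.3 and 49.8 CPM, the same order as Fcgrt, whereas the Langerhans and dendritic cell markers summed to 47.1, 63.1 and 42.9 CPM, lowest in replicate 3 where Fcgrt was highest. The fibroblast, keratinocyte and endothelial markers followed the order of Fcgrt within both groups, at 557, 619 and 694 CPM in embryonic and 379, 334 and 73.9 CPM in adult replicates, but were lower in the adult group, where Fcgrt was higher. Of the macrophage list 11 of 12 tested markers were adult-high, of which 8 did not reach the filter level in every embryonic library. Of the Langerhans and dendritic cell list 7 of 8 were adult-high, with 5 of that kind. The part of such cells in the Fcgrt difference was not tested, and in bulk libraries fewer cells of a type and less RNA per cell cannot be told apart. Fcgr2b, like both immune sums, was higher in the adult group. Its highest adult library was replicate 2 and its highest embryonic library replicate 3, as for the macrophage sum. The lowest libraries differed, the macrophage sum being lowest in adult replicate 3 and embryonic replicate 1. Fcgr2b was lowest in embryonic replicate 2 and in adult replicate 1, where the Langerhans and dendritic cell sum was highest. The part of other cells in its difference was not tested. Fcer1a, Ms4a2 and Fcer1g gave their lowest adult values in replicates 2, 1 and 2.

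**Figure D3:**
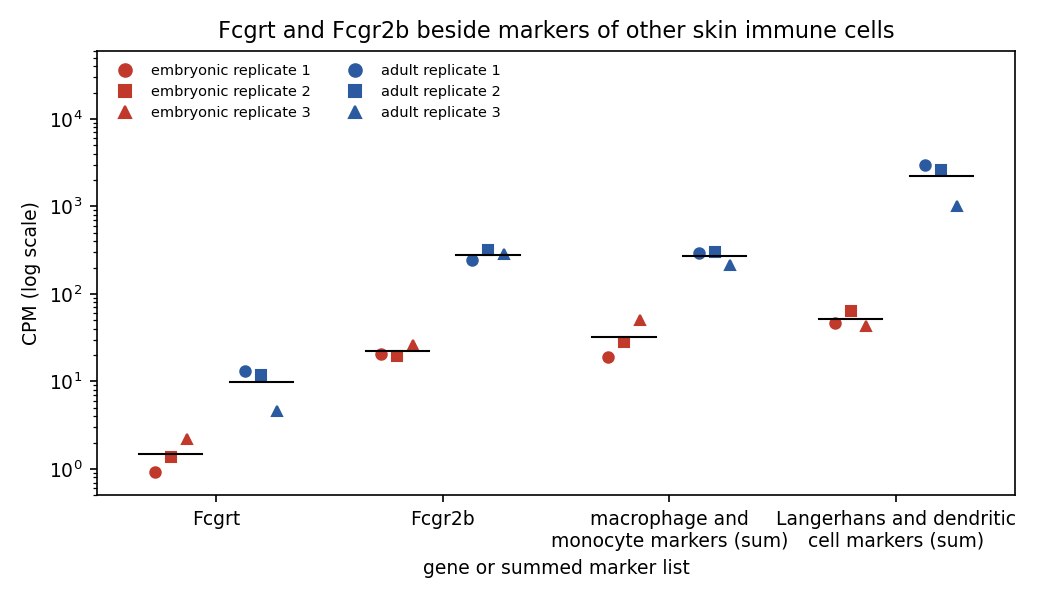
CPM (log scale) of Fcgrt and Fcgr2b and summed CPM of the marker lists of macrophages and monocytes and of Langerhans and dendritic cells in each embryonic (red) and adult (blue) library, with lines at group means. Adult replicate 3 is lowest of its group for Fcgrt (4.61 CPM) and for both marker sums (213 and 1004 CPM), but not for Fcgr2b (286 CPM).

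**Figure D4:**
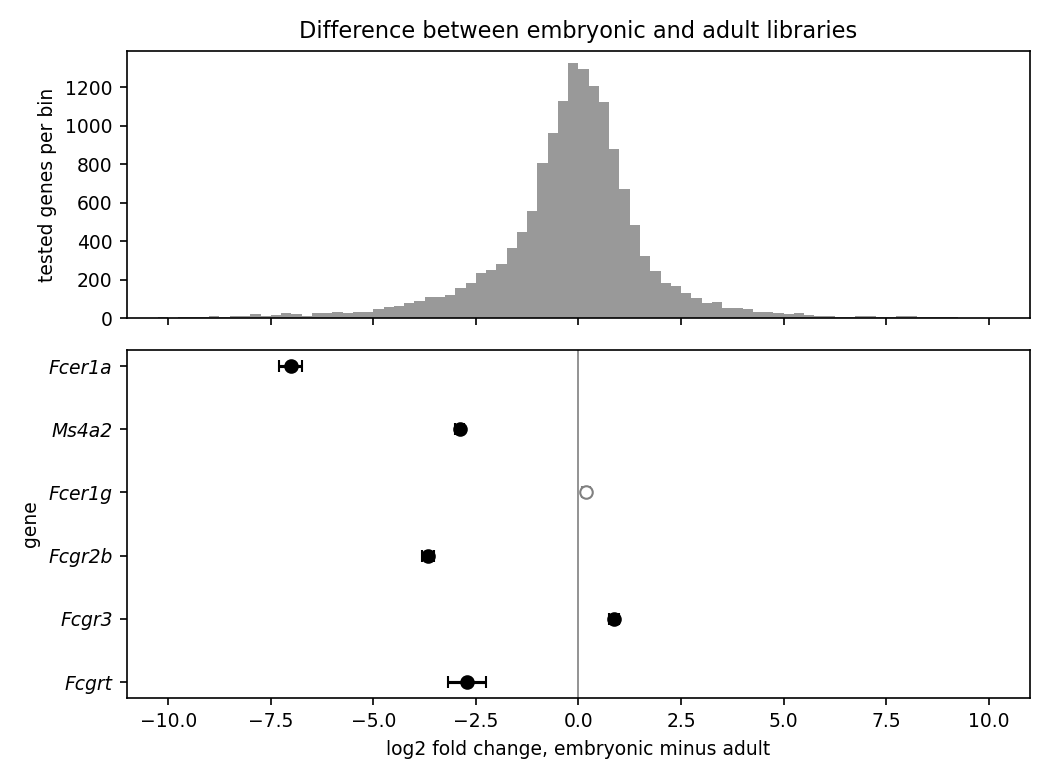
Log2 fold change, embryonic minus adult, of all 15111 tested genes as a histogram (upper panel) and of the 6 tested Fc receptor genes with bars of 1 SE (lower panel, filled where the adjusted p is under 0.05). Fcer1a at -7.02 lies far in the adult tail, while Fcer1g at 0.18 and Fcgr3 at 0.86 lie within the bulk of the distribution.

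Other immunoglobulin-binding genes were mostly faint. Of 13, 7 were tested, and 5 were adult-high and 1 embryonic-high, where 63.0% of all tested genes passed. Of the 5, 3 (Fcrla, Fcrlb and Fcgbp) passed the filter only through their adult libraries, and the 1 embryonic-high gene only through its embryonic ones, which leaves Lgals3 and B2m. Lgals3, which encodes galectin-3, a lectin that can bind IgE and is abundant in macrophages and epithelia, stood at 83.1 ± 15.9 CPM in the embryonic and 2160 ± 439 CPM in the adult cells (26.0-fold, edgeR adjusted p = 1.6e-07). The macrophage and monocyte sum (19.1 to 49.8 against 213 to 301 CPM) and the Langerhans and dendritic cell sum (42.9 to 63.1 against 1004 to 2983 CPM) were also higher in the adult group. Adult replicates 1 to 3 read 2211, 1698 and 2571 CPM for Lgals3, highest in replicate 3, where both sums were lowest. Embryonic replicates 1 to 3 read 73.3, 74.5 and 101.5 CPM, in the order of the macrophage and monocyte sum. The part of such cells in the Lgals3 difference was not tested. Fcrlb, an intracellular Fc receptor-like gene that lies near the Fcgr genes, was at 0.228 ± 0.104 and 5.11 ± 1.07 CPM (22.4-fold, edgeR adjusted p = 1.3e-05). Fcrl1, an Fc receptor-like gene of B cells, was the list's gene higher in embryonic cells, its means being 1.90 ± 0.463 (embryonic) and 0.344 ± 0.374 CPM (adult) (edgeR adjusted p = 0.017). Fcer2a, the low-affinity IgE receptor, averaged 0.0498 and 0.412 CPM and was too low to be tested; it is named here after its values were seen.

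Other receptors that, like the IgG receptors, signal through the gamma chain were faint in both groups. Of the 12 listed 9 were found, Klra17 among them. The found genes other than Klra17 summed to 0.322 to 1.34 CPM in the embryonic and 4.38 to 6.32 CPM in the adult libraries. Of 6 tested genes 5 were adult-high, but all 5 passed the filter on low counts only through their adult libraries, so that count carries no information on direction. Klra17 made up most of the full list's 38.5 to 106 CPM in the adult libraries, at 0.136 ± 0.0644 and 70.1 ± 33.3 CPM (edgeR adjusted p = 3.4e-05), which is better known as an inhibitory lectin-like receptor than as a gamma chain partner. Clec4d, a gamma chain-coupled lectin of myeloid cells, was at 0.0541 ± 0.0101 and 1.54 ± 0.557 CPM (edgeR adjusted p = 7.3e-05). The macrophage and dendritic cell marker sums were likewise higher in the adult group, but lowest there in replicate 3. In adult replicates 1 to 3 Klra17 read 76.1, 34.1 and 99.97 CPM and Clec4d 1.83, 0.900 and 1.89 CPM, both lowest in replicate 2. Embryonic values of both rest on few reads. The part of macrophages and dendritic cells in these differences was not tested.

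Of 8 other adaptor chains of the ITAM type or their partners, 6 were tested, with 3 embryonic-high and 1 adult-high, of which Tyrobp alone reached the filter level in all libraries of both groups. With 63.0% of all tested genes passing, this count is no result about the list. Tyrobp, which encodes DAP12, the other ITAM adaptor of myeloid cells, was at 465 ± 85.3 CPM in the embryonic and 216 ± 14.8 CPM in the adult cells, 2.15-fold higher in embryonic cells (edgeR adjusted p = 7.0e-05). Cd79b, a signalling chain of the B cell receptor, was at 6.97 ± 0.537 and 0.0490 ± 0.0635 CPM, and its partner Cd79a at 0.0749 ± 0.0441 and 0.455 ± 0.155 CPM (edgeR adjusted p = 6.8e-06 and 0.0070). Each of these 2 chains passed the filter only through the group in which it was higher.

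Among 15 kinases and adaptors that act directly downstream of Fc receptors, all were tested. Of these 9 were adult-high (1 of them, Fgr, tested only through its adult libraries) and 4 embryonic-high. The shares over all tested genes were 31.7% adult-high and 31.2% embryonic-high. The list's median log2 fold change was -0.91 against -0.02 over all tested genes. Syk, the kinase that docks on phosphorylated gamma chains, was at 104 ± 0.604 CPM in the embryonic and 272 ± 17.1 CPM in the adult cells. The adaptor Lat read 33.2 ± 2.21 and 120 ± 15.6 CPM, whereas the adaptor Lcp2 read 1132 ± 101 and 501 ± 30.7 CPM and had the lowest p of the embryonic-high genes (edgeR adjusted p = 1.1e-06 for Syk, 8.9e-07 for Lat and 8.2e-06 for Lcp2). Of 16 brakes on this signal 14 were found and 13 tested, with 5 adult-high and 4 embryonic-high, 1 of the 4 tested only through its embryonic libraries. These counts are near the shares over all tested genes and are no result about the brakes as a list. Pirb, an inhibitory receptor for MHC class I, was 12.2-fold higher in adult cells, from 16.46 ± 5.03 CPM in the embryonic to 201 ± 16.0 CPM in the adult libraries (edgeR adjusted p = 1.7e-06). The macrophage and dendritic cell marker sums were also higher in adult libraries. Adult replicates 1 to 3 read 214, 183 and 206 CPM for Pirb, lowest in replicate 2, whereas both sums were lowest in replicate 3. Embryonic replicates 1 to 3 read 11.7, 16.0 and 21.7 CPM, in the order of the macrophage and monocyte sum. The part of such cells in the Pirb difference was not tested. Dok2, an adaptor that restrains Ras signalling, was 5.97-fold higher in embryonic cells, its means being 69.6 ± 4.23 (embryonic) and 11.6 ± 2.46 CPM (adult) (edgeR adjusted p = 5.4e-07). Inpp5d, the gene of SHIP-1, named here after its values were seen because the Fcgr2b product acts through it, averaged 1237 ± 111 CPM in the embryonic and 1172 ± 78.3 CPM in the adult libraries without passing (log2 fold change 0.08 ± 0.11 SE, edgeR adjusted p = 0.55).

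Other genes of the Ms4a family, which surround Ms4a2 on chromosome 19, were faint. Of 17, 5 had 0 counts in every library and 4 were tested. These 4 were adult-high, but 3 of them, all except Ms4a6d, passed the filter only through their adult libraries, so the count carries no information on direction. Ms4a6d was at 0.588 ± 0.430 and 13.3 ± 0.838 CPM (21.9-fold, edgeR adjusted p = 3.1e-05). Ms4a4c had 0 counts in all embryonic libraries and 87 in the adult ones, at least 28.7-fold higher against a floor of 3 counts over the group. Several of these genes are known from macrophages, whose markers were also higher in adult libraries, and the part of such cells was not tested. The 17 genes together summed to at most 19.9 CPM in any library, against 198 CPM or more for Ms4a2.

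Of 10 transcription factors or cofactors known to act on IgE receptor genes or on mast cell genes in general, 3 were embryonic-high, 2 adult-high and 5 did not pass. Passing was no more common here than over all tested genes (63.0%), and the list's median log2 fold change was -0.00. Zfpm1, which encodes the GATA cofactor FOG-1, was 4.44-fold higher in adult cells, its means being 4.90 ± 1.08 (embryonic) and 21.7 ± 4.93 CPM (adult) (edgeR adjusted p = 1.7e-05). Tal1, a partner of GATA factors, was 2.86-fold higher, at 44.8 ± 7.22 against 128 ± 19.7 CPM (edgeR adjusted p = 1.7e-05). The GATA factors themselves, named here after their values were seen, were higher in embryonic cells, Gata1 at 157 ± 21.1 against 71.5 ± 5.32 CPM and Gata2 at 3668 ± 348 against 2452 ± 316 CPM (edgeR adjusted p = 2.0e-05 and 0.0024).

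The genes whose log2 CPM most resembled that of Fcer1a over the 6 libraries were H2-T23 (Pearson r = 0.99998), a nonclassical MHC class I gene, Crlf2 (r = 0.99969), the TSLP receptor chain, and Dntt (r = 0.99969), terminal deoxynucleotidyl transferase. H2-T23 read 68.2, 62.5 and 73.5 CPM in the embryonic and 316, 282 and 324 CPM in the adult libraries, so it shared the low adult replicate 2 with Fcer1a but had a much smaller fold (4.51). Crlf2 read 11.3, 10.7 and 11.7 against 25.2, 23.2 and 26.0 CPM, and Dntt 0.0859, 0.0567 and 0.104 against 7.22, 5.63 and 8.66 CPM. The embryonic values of Dntt lay around the counting floor of 0.0602 to 0.0879 CPM, so it passed the filter only through its adult libraries. Its likeness to Fcer1a within the embryonic group rests on a few reads and on the 0.1 CPM added before the log. These correlations span 6 libraries in 2 separate groups, and 573 tested genes had a correlation above 0.99 with Fcer1a.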

How the data were processed

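RNA of sorted skin mast cells was made into full-length cDNA with SMART-Seq v4 from 10 ng of total RNA (10 PCR cycles) and tagmented with Nextera XT (12 cycles), per the labels' protocols. The deposited values are raw read counts. They were made with featureCounts 1.5.0-p1, per the file headers, over GENCODE M9 exons summed per gene, ignoring strand (setting 0) and skipping reads marked as duplicates. Per the submitters' processing notes, STAR, GRCm38 (mm10) and edgeR were used; for STAR and edgeR no version is given in the sources used here. If duplicates were marked, abundant genes are capped; without strand, antisense reads cannot be told apart.

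Symbols were matched by Ensembl ID (47224 of 47643), all 6 sample columns were used, and 5 listed genes were not found under their symbols. The main test was the quasi-likelihood test of edgeR 4.0.16 under R 4.3.3 (TMM, filterByExpr with a minimum count of 10, robust estimation, Benjamini-Hochberg over 15111 genes, threshold 0.05), with embryonic against adult as the only term. Each SE was taken as the absolute log2 fold change over the root of the F statistic. Chain ratios were tested with an exact permutation test (scipy 1.17.1). Likeness to Fcer1a used log2 of CPM plus 0.1. The test was tried on simulated data of this comparison with 15111 genes, 50 changed at each size and every gene given the same spread. Recovery was 6% where the simulated fold was 1.5, 36% where it was 2, 100% at 4 and 98% at 8, with 5 false calls. In the real data many more genes changed and spreads differed among genes, so these shares do not apply to single genes. Replicates of a group differed by 34.3 to 89.1 in chi-square per degree of freedom, above counting noise.

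The members and lists were chosen with earlier results of these data known. The text names all members and, in each list, the 2 genes with the lowest adjusted p and the lowest one of the rarer direction; for marker lists, the 2 genes of highest CPM (the other basophil genes were named after their values were seen); B2m; the gate genes Kit, Il1rl1 and Adgre1; and the 3 genes most like Fcer1a. Alternatives were RLE and upper quartile scaling, other filters, DESeq2 1.42.0, limma-voom (limma 3.58.1), no robust estimation, a replicate block and leaving out libraries. Promoters are RefSeq's, in GRCm38.p6.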

Additional observations from a re-analysis of the deposited data

How the results depend on the processing

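Across 15 alternatives for each of the 6 tested members, 1 of 90 values crossed the threshold: Fcer1g without embryonic replicate 2 (log2 fold change 0.31, edgeR adjusted p = 0.044, the lowest of its settings, which reached 0.31). No member changed direction. Folds lay between 112 and 148 for Fcer1a, 7.04 and 7.78 for Ms4a2, 11.8 and 14.7 for Fcgr2b, 1.68 and 1.99 for Fcgr3 and 5.41 and 8.45 for Fcgrt. Leaving out each library gave 5 to 6 called members and 8796 to 9221 called genes. With embryonic replicate 3 and adult replicate 1 both left out, a setting chosen after seeing the data, 5 members and 8385 genes were called. All 32 alternatives of the chain ratios kept their direction, and leaving out 1 library gave log2 differences of -7.40 to -7.09 for Fcer1a to Fcer1g, -3.13 to -3.00 for Ms4a2 to Fcer1g, -4.40 to -3.97 for Fcer1a to Ms4a2 and -4.59 to -4.48 for Fcgr2b to Fcgr3.

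The groups share replicate numbers, but same-numbered libraries did not deviate together (correlations of -0.124, -0.0823 and -0.134), so the numbers were not taken as pairs. With the replicate block 8848 genes and 5 members were called, and no member's call changed; the exact sign-flip permutation test of the ratios could not go below p = 0.25. Depth limits Fcgr1 and Fcgr4, whose libraries held at most 12 counts.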
